A study of Mus musculus with 4 samples.

Results

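Ependymal cells are the ciliated cells that line the brain ventricles. Of 32044 nuclei from mouse hippocampus that passed the limits on depth and mitochondrial RNA, 54 met the rule for ependymal nuclei. The rule asked for at least 500 UMIs (unique molecular identifiers, the counted RNA molecules) and at most 5% mitochondrial UMIs. At least 4 of 6 markers had to be detected: Foxj1, Ccdc153, Dnah12, Rsph1, Cfap54 and Spag16. Nuclei with a UMI of Sfta3-ps or Hpse2, or with more than 3 UMIs of the neuronal genes Syt1 and Rbfox3 together, were left out. The measured values thus chose these nuclei, so every contrast with other nuclei is a description and carries no test.

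Nuclei were isolated from frozen, pooled hippocampus and profiled by droplet single-nucleus RNA sequencing in 4 libraries. WT mice carried neither transgene. PS19 mice, measured in 2 libraries, carried human MAPT with the P301S mutation (tau isoform 1N4R) under the Prnp promoter and are a model of tau pathology. TG_PS19 mice carried in addition a SORLA transgene at Rosa26 under a CMV/β-actin promoter, which is active in many cell types. The sources used here give neither the number, age and sex of the pooled animals nor whether the PS19 replicates were prepared from different animals. WT and TG_PS19 have 1 library each, so the spread between animals was not measured in them and the PS19 spread may be technical. In total, the libraries held from 4643 to 12762 barcodes and from 20064025 to 48670533 UMIs, with median depths of passing nuclei from 2643 to 3710 UMIs. Pairs of libraries shared 5 to 32 barcodes. TG_PS19 stood apart in sex-linked RNA, since nuclei other than ependymal ones held 1076 CPM (UMIs scaled to a total of 1000000) of Xist against 2.63 to 4.21 CPM in the other 3 libraries, and 64.7 against 152 to 157 CPM of the Y-linked gene Uty. Sex and genotype therefore cannot be told apart in TG_PS19.

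Ependymal cells carry tufts of motile cilia that move cerebrospinal fluid along the ventricle wall. Each cilium is built on an axoneme, in which outer doublet microtubules surround a central pair. Axonemal dyneins on the doublets generate the bending, radial spokes and the nexin link coordinate it, and intraflagellar transport carries parts into the cilium. Foxj1 and the RFX factors switch on this program. The hippocampus borders the lateral ventricle, whose choroid plexus is also a ciliated epithelium.

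Within the rule, Spag16 (a central apparatus protein) was detected in all 54 nuclei, Cfap54 in 53 and Dnah12, an axonemal dynein heavy chain, in 50. Ccdc153 was detected in 42 nuclei, the radial spoke gene Rsph1 in 21 and the master regulator Foxj1 in 17. Foxj1 spans 4.70 kb, Ccdc153 6.63 kb and Rsph1 22.4 kb, while Spag16 spans 898 kb. Exactly 4 markers were held by 36 nuclei, 5 by 15 and all 6 by 3. Of the nuclei just outside the rule, 60 held 3 markers and met its other conditions. Among these 60, at least 4 of 8 choroid plexus genes (Folr1, Kl, Clic6, Htr2c, Otx2, Kcne2, Slc4a5 and Kcnj13) were detected in 31, and the ependymal gene Tmem212 in 21.

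The label was checked on 87 genes of the motile cilium that the rule did not use. A member held a median of 38 of them (range 13 to 53), at a median depth of 2828 UMIs. Pooled over its members, a library had between 1.71% and 2.58% of its ependymal UMIs in these genes, against 0.0770% to 0.0827% in all other nuclei. Astrocyte nuclei, chosen by at least 4 of 6 astrocyte genes, had 0.0656% to 0.0873%. Choroid plexus nuclei, chosen by at least 4 of the 8 genes above, lay between with 0.682% to 0.935%. Tmem212 separated the ciliated populations: 50 of 54 members had a UMI, and 0 of 129 choroid plexus nuclei did, which allows a share of nuclei with a UMI of up to 2.33% at 3 counts and does not limit the share that expresses the gene. Median choroid plexus depths were higher, at 4812 to 7313 UMIs per library. The label thus held for most members, while 21 nuclei outside the rule also had Tmem212 and at least 20 ciliary genes. In 2 members, 1 in each PS19 library, the markers went against the label, with 0 UMIs of Dnah12, Ccdc153 and Tmem212 but 8 and 7 of the 8 choroid plexus genes. A TG_PS19 member went against it too, with 0 UMIs of the same ependymal genes. That member held only 13 of the 87 ciliary genes and 52 UMIs of a list of astrocyte genes. All of these are among 9 members that carried RNA of a second cell class, described below. These 9 held 17.2% of the ependymal UMIs in WT, 30.6% and 59.3% in PS19 replicates 1 and 2 and 37.7% in TG_PS19. They thus weigh unequally on levels over all members. Levels without them are given for some genes, and without them the order of the libraries can differ.

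**Figure D1:**
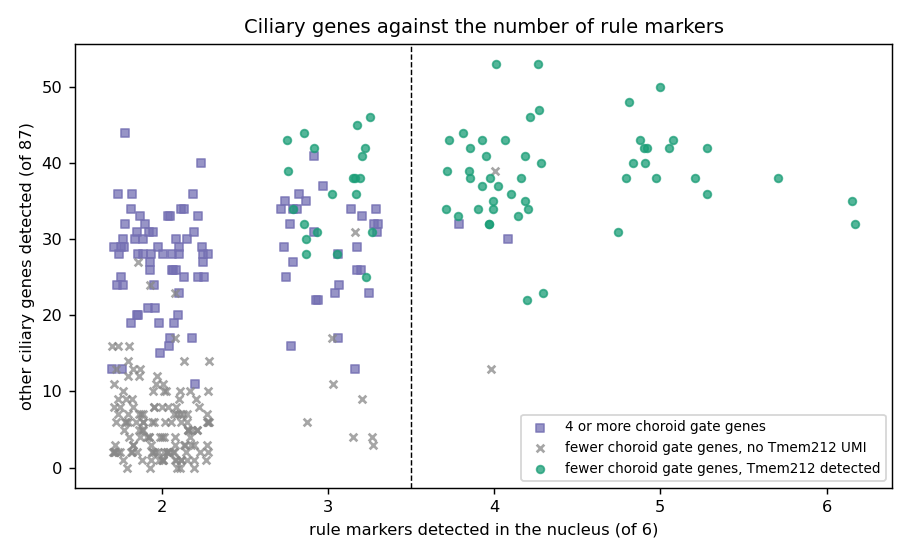
Each point is a nucleus with at least 2 rule markers that met the other conditions of the rule; the horizontal axis is the number of rule markers detected, spread sideways for visibility, and the vertical axis the number of 87 other ciliary genes detected. Members lie right of the dashed line. Nuclei with Tmem212 appear from 3 markers upward, mixed at 3 markers with nuclei that hold choroid plexus genes.

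Levels are given as CPM, and folds as log2 of member over other nuclei after adding 10 CPM. Of 15863 features with a UMI in any member, 711 (4.48%) had a log2 fold of at least 1 in all 4 libraries. Of these 711, 565 were protein-coding genes, 42 were antisense and 36 were long intergenic RNAs. Gene names that start with Cfap (cilia and flagella associated proteins) made up 24 of these, from 32 Cfap genes with a member UMI, and the dynein heavy chain names (Dnah) made up 13 of 14. Both counts include a rule marker (Cfap54 and Dnah12), whose high level was set by the rule. The 30 leading features, ordered by their lowest fold over the libraries, had lowest log2 folds from 4.68 to 6.32. They were led by Dnah12, Tmem212, Cfap299, Spag17, Wdr49, Ak7, Spag16 and Lrrc36. Of the 30, 3 are rule markers (Dnah12, Spag16 and Ccdc153), so their rank was set by the rule.

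Cfap299, a cilia-associated gene in no list used here, lies at chromosome 5, 98329304 to 98802047 (GRCm38). It had 97 UMIs in WT, 142 and 63 in PS19 replicates 1 and 2 and 74 in TG_PS19. In that order, its levels were 3391, 1624, 1345 and 2024 CPM, against 8.27 to 11.3 CPM in the other nuclei. It was detected in 53 members, and after thinning each nucleus to 1000 UMIs in 85.2% of members and 5.43% of choroid plexus nuclei. Tmem212, a membrane protein gene at chromosome 3, 27866066 to 27896368, had 38, 77, 32 and 45 UMIs in WT, PS19 replicates 1 and 2 and TG_PS19. These counts are 1329, 880 and 683 and 1231 CPM, against 0.382 to 1.15 CPM in other nuclei. Both genes were higher in the members of every library, and in both the WT and TG_PS19 levels lay above the PS19 pair. Without the 9 nuclei, with the libraries listed as before, Cfap299 stood at 3294, 2207, 2358 and 2766 CPM and Tmem212 at 1478, 1186, 1101 and 1844 CPM. The WT and TG_PS19 levels again lay above the PS19 pair. TG_PS19 then lay above WT for Tmem212, and PS19 replicate 2 above PS19 replicate 1 for Cfap299.

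Several of the leading features are transcripts with little known function. The antisense transcript 3300002A11Rik was detected in 51 members and stood at 1888, 1292, 982 and 1040 CPM in WT, PS19 replicates 1 and 2 and TG_PS19. Without the 9 nuclei these levels were 1942, 1812, 1886.5 and 1493 CPM. The long intergenic RNA Gm13481 was detected in 44 members at 874, 880, 896 and 711 CPM, and without the 9 nuclei at 845, 1235, 1624 and 1054 CPM. Another intergenic RNA, C230072F16Rik, reached 909, 526, 811 and 739 CPM, and without the 9 nuclei 1056, 675, 1415 and 922 CPM. Counting by strand is not given in the sources used here, so the antisense level may include reads of an overlapping gene. All 3 were rare elsewhere, at most 14.7 CPM in the other nuclei of any library.

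Among the dynein heavy chains, the motors of the axoneme, 12 of 13 genes had a member UMI and 11 had a log2 fold of at least 1 in all libraries. The inner-arm gene Dnah6 had 27, 74, 36 and 33 UMIs in WT, PS19 replicates 1 and 2 and TG_PS19, or 944, 846, 768 and 903 CPM, against 9.52 to 13.2 CPM elsewhere. The outer-arm gene Dnah11 had 25, 46, 27 and 36 UMIs, or 874, 526, 576 and 985 CPM. Dnah9, which is an outer-arm heavy chain as well, stood at 707 CPM over all members, but 10.8% of the other nuclei had a Dnah9 UMI. The outer-arm gene Dnah5 was uneven between libraries, with 17, 35 and 12 UMIs in WT and PS19 against 3 in TG_PS19. Dnah8 had 0 UMIs in the members although 4.94% of other nuclei had one, and Dnah17 had 2. Reads of the near-identical genes Dnah7a, Dnah7b and Dnah7c could be split between them, so their 87, 111 and 61 UMIs are uncertain.

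The other dynein genes cover intermediate and light chains, the docking complex that anchors outer arms, and the factors that assemble dyneins in the cytoplasm. Of 17, 12 had a log2 fold of at least 1 in all libraries. The docking gene Ccdc114 reached 597 CPM over the members, and 5.46% of other nuclei had a UMI. Armc4, another docking gene, reached 471 CPM against 3.84 CPM elsewhere. The assembly factor Dnaaf3 was detected in 45 members, with 14, 35, 21 and 16 UMIs in WT, PS19 replicates 1 and 2 and TG_PS19. Its levels were 489, 400, 448 and 438 CPM, and 549, 527, 576 and 615 CPM without the 9 nuclei, a narrow spread in both. The assembly factor Dnaaf2 and the dynein attachment gene Ccdc103 had 0 member UMIs.

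The central apparatus, which surrounds the central microtubule pair, was the most complete list, with 12 of 13 genes at a log2 fold of at least 1 in all libraries. Spag17 had 20, 73, 43 and 41 UMIs in WT, PS19 replicates 1 and 2 and TG_PS19, or 699, 835, 918 and 1122 CPM, against 2.10 to 3.42 CPM elsewhere. WT was the lowest here, also without the 9 nuclei, at 802, 1005, 1205 and 1669 CPM. Ak7, an adenylate kinase of the axoneme, had its highest level in WT instead, at 1503 CPM, with 777 and 640 in the PS19 replicates and 657 CPM in TG_PS19. Hydin, whose loss in mice leads to hydrocephalus, had 26, 64, 18 and 18 UMIs, or 909, 732, 384 and 492 CPM, and without the 9 nuclei 971, 1021, 681 and 703 CPM. The exception was Spef1, with 5 member UMIs.

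Radial spoke and nexin link genes, which relay signals between the central pair and the dyneins, had 14 of 20 members at that fold in all libraries. Cfap61 reached 559, 423, 384 and 602 CPM in WT, PS19 replicates 1 and 2 and TG_PS19, and Wdr66 376 CPM over all members against 4.76 CPM elsewhere. Genes of the doublet microtubules and their inner proteins had 17 of 24. Cfap44, which tethers dyneins to the doublets, had 23, 76, 28 and 25 UMIs, or 804, 869, 598 and 684 CPM. Cfap43, its partner, stood at 657 CPM over the members against 11.7 CPM elsewhere. Tekt2 had 0 member UMIs.

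Promoters of the leading genes were read from RefSeq, because genes of the motile cilium are classic targets of RFX factors, which bind the X-box, and of the forkhead factor Foxj1. Of the 30 leading features, 22 had a promoter entry (a window of 300 bases, most of it before the start). A match to the X-box, searched on both strands, was found in 7 of the 22 (31.8%) and in 3.66% of 27025 genes in the table. Those 7 are Dnah12, Spag17, Ak9, Ccdc170, Dnaaf3, Cfap44 and Cfap61. The forkhead motif GTAAACA, also searched on both strands, was found in 3 of 22 (13.6%: Wdr49, Ak7 and Ccdc170) and in 4.05% of all genes, and none lies in a window that holds an X-box match. A match is a string of letters and not a measured site. The 3 promoters below (GRCm38.p6) are shown for the place of the X-box, which is in capitals; it starts 27 bases before the Cfap44 start, 163 before the Dnaaf3 start and 11 before the Ak9 start.
Cfap44, chr16:44394549-44394848, plus strand: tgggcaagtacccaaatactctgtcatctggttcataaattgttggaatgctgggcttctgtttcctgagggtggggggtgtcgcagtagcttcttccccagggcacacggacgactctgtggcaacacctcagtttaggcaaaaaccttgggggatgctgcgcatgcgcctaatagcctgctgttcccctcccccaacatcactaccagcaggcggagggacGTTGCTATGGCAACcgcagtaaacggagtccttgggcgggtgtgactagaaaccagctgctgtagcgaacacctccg
Dnaaf3, chr7:4532416-4532715, minus strand: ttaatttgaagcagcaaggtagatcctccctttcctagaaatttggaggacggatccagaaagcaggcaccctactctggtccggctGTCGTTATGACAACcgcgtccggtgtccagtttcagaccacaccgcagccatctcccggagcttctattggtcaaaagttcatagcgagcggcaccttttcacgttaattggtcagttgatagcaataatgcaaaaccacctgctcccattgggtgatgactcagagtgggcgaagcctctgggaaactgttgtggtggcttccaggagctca
Ak9, chr10:41303684-41303983, plus strand: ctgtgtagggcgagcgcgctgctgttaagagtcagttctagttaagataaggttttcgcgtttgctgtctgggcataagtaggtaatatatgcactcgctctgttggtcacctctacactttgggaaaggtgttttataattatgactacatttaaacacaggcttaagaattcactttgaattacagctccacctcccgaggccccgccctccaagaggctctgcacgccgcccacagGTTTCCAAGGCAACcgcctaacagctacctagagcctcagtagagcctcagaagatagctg
In the members, Ak9, an adenylate kinase, had 21, 46, 22 and 19 UMIs in WT, PS19 replicates 1 and 2 and TG_PS19. These counts are 734, 526, 470 and 520 CPM, against 3.78 to 4.19 CPM in other nuclei. Without the 9 nuclei the Ak9 levels were 802, 708, 734 and 659 CPM.

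The factors that build multiple cilia were lower and more mixed. Of 15 regulators, 5 had a log2 fold of at least 1 in all libraries: Rfx2, Gmnc, Ccdc78, Myb and Trp73. Rfx2 had 10, 10, 11 and 4 UMIs in WT, PS19 replicates 1 and 2 and TG_PS19. Rfx3 was detected in 46 members but also in 51.2% of other nuclei, with log2 folds of only 0.06 to 0.69. Mcidas and Ccno, which act while cilia are being made, had 0 member UMIs, and Deup1, which acts in the making of centrioles, had 6.

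Intraflagellar transport is used by primary cilia as well, and its 22 genes were higher by less: 5 had a log2 fold of at least 1 in all libraries. The summed list stood at 2127 to 2937 CPM in members and 759 to 857 CPM in other nuclei. Ift88 reached 296 CPM against 50.6 CPM elsewhere, and the retrograde motor Dync2h1 316 against 115 CPM. Of 12 planar polarity genes, which align the cilia, 1 was higher to that degree, Celsr1, with 130 CPM over the members, and 3 were lower by a log2 fold of at least 1 in all libraries. Those 3 were Vangl2 and Celsr3, with 0 member UMIs, and Prickle1, with 90.2 against 458 CPM.

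**Figure D2:**
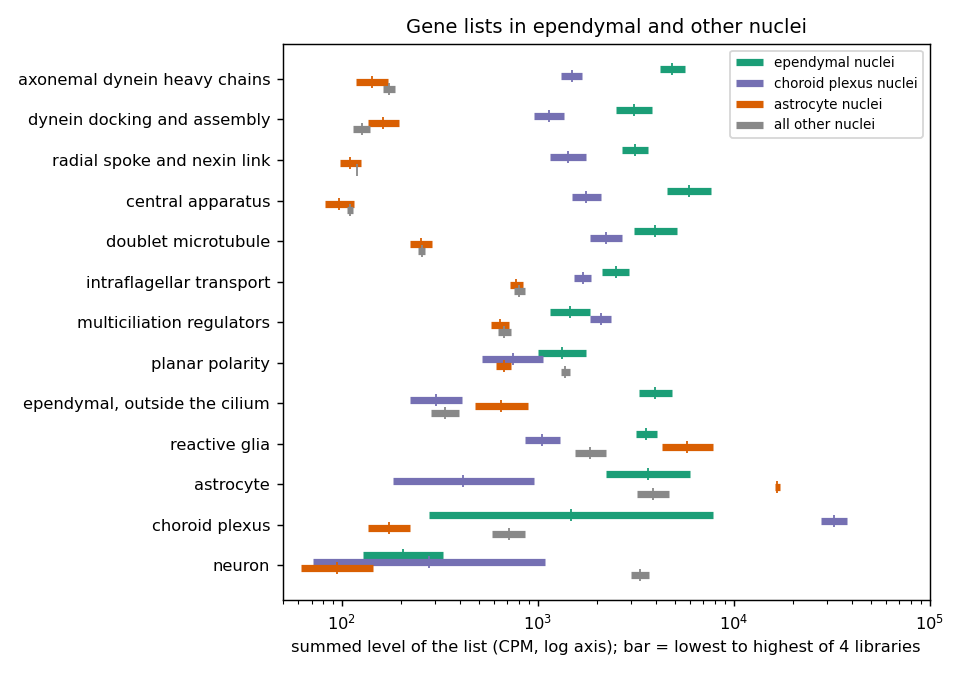
Summed level of each gene list in CPM (log axis); a bar runs from the lowest to the highest of the 4 libraries and its tick marks the middle on that axis. Ependymal nuclei lie above the other populations in the 5 axoneme lists, and their choroid plexus sum spreads from 280 to 7833 CPM (247 to 838 CPM without the 9 nuclei). The list labelled as outside the cilium holds ependymal genes beyond the ciliary lists, some of them cilia-associated.

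Beyond the ciliary lists above, 8 of 12 further genes known from ependyma had a log2 fold of at least 1 in all libraries. Some of these 12, such as Fam183b, are cilia-associated as well. Nnat, which encodes the small membrane protein neuronatin, had 55, 194, 80 and 90 UMIs in WT, PS19 replicates 1 and 2 and TG_PS19, or 1923, 2218, 1707 and 2462 CPM, against 190 to 301 CPM elsewhere. Without the 9 nuclei the Nnat levels were 2238, 2289, 3616 and 3074 CPM, and PS19 replicate 2 turned from the lowest to the highest. After thinning Nnat was found in 83.3% of members, 31.0% of astrocyte nuclei and 2.33% of choroid plexus nuclei. The phospholipid transfer gene Pltp reached 451 CPM over the members, and the chemerin gene Rarres2 175 CPM. Vim and S100b, used as protein markers of ependyma, had 11 and 15 member UMIs. Cd24a, also a surface marker of these cells, had 9 UMIs in 8 members. Scn7a, taken here from a list of tanycyte genes (tanycytes line the third ventricle), was detected in 22 members, while the tanycyte genes Rax, Gpr50 and Crym had 0 UMIs.

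Genes shared with astrocytes were present at lower levels than in astrocyte nuclei. The astrocyte list summed to 2238 to 5964 CPM in members and 16187 to 17138 CPM in astrocyte nuclei. Without the 9 nuclei its member sums were 2280, 2224, 1520 and 1537 CPM in WT, PS19 replicates 1 and 2 and TG_PS19, the last of which had been 5964 CPM. The glutamate transporter gene Slc1a3 was detected in 36 members, and the water channel gene Aqp4 in 26. The connexin gene Gjb6 had 0 UMIs in members but 138 CPM in astrocyte nuclei. Of 19 genes linked to reactive glia, only C3 had a log2 fold of at least 1 in all libraries, and its 10 UMIs lay in 8 members. Apoe was found in all 54 members, but also in 88.1% of other nuclei, and its level was 2141 CPM in members and 3694 CPM in astrocyte nuclei. Ceruloplasmin (Cp) was detected in 24 members, at 206 CPM against 24.1 CPM in astrocyte nuclei. No neuronal gene of 8 was higher, and all 8 were lower by a log2 fold of at least 1 in every library, which the limit on Syt1 and Rbfox3 fixed for those 2 genes. Lists of the remaining cell types were present at low to moderate sums. The microglia list summed to 235 to 315 CPM in members and 438 to 515 CPM elsewhere, with 4 of 6 genes detected, Cx3cr1 in 21 members, and Csf1r and Inpp5d at 0. The endothelial and mural list reached at most 175 CPM, with Flt1, Cldn5, Rgs5 and Abcc9 at 0, and the fibroblast list at most 54.7 CPM. The oligodendrocyte list, with 6 of 6 genes detected, ran from 309 to 2881 CPM over the libraries, and the oligodendrocyte precursor list reached at most 640 CPM. Without the 9 nuclei they ran from 262 to 878 CPM and reached at most 367 CPM. The part of such RNA in the levels above was not tested.

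The nearest population was choroid plexus, and the 45 members without markers of a second class (defined below) were set beside its 129 nuclei. The 87 ciliary genes entered these choices directly only through the limit of 20 detected genes, which removed no member that the other limits kept. Ependymal nuclei were, however, chosen by other ciliary genes, and choroid plexus nuclei by genes in no ciliary list. The choice thus favors higher ciliary levels on the ependymal side. Of the 129 choroid plexus nuclei, 108 held at least 20 ciliary genes. Of the 87, 64 had a mean of at least 50 CPM over both populations. The ratio of choroid plexus to ependymal level had a median of 0.253, was under 0.1 for 12 genes, between 0.1 and 0.5 for 39 and over 0.5 for 13. In 53 of the 64 the ependymal level was higher in all 4 libraries. This is a description of rule-chosen nuclei with no test.

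The 12 genes under a ratio of 0.1 included 4 dynein heavy chains (Dnah3, Dnah5, Dnah7a and Dnah10) and 4 central apparatus genes (Spag17, Cfap46, Cfap221 and Ak7). The ratio of Dnah7a is uncertain, since its reads could be split with the near-identical Dnah7b and Dnah7c, which had ratios of 0.417 and 0.173. Dnah5 had 62 UMIs in 126253 ependymal UMIs and 1 in 831713 choroid plexus UMIs, or 491 against 1.20 CPM. Spag17 had 141 against 15 UMIs, and Cfap46 at 499 against 3.61 CPM. Cfap100 and Wdr66 were also in this group. By contrast, Dnah6 stood at 1101 against 462 CPM and Dnah9 at 911 against 305 CPM, and both heavy chains were detected in choroid plexus nuclei of every library.

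A few ciliary genes went the other way. Drc7, a nexin link gene, was lower in ependymal nuclei in all 4 libraries, at 52.4 to 219.6 CPM against 329 to 460 CPM. Gmnc, the regulator at the head of multiciliation, stood at 42.2 to 105 CPM in ependymal and 649 to 772 CPM in choroid plexus nuclei. Myb differed in the opposite sense, with 14 UMIs (111 CPM) in ependymal nuclei and 1 UMI (1.20 CPM) in choroid plexus. Rfx3 was at 776 against 1024 CPM, with ranges over libraries that overlapped. Foxj1, which the rule used, was at 135 against 44.5 CPM.

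**Figure D3:**
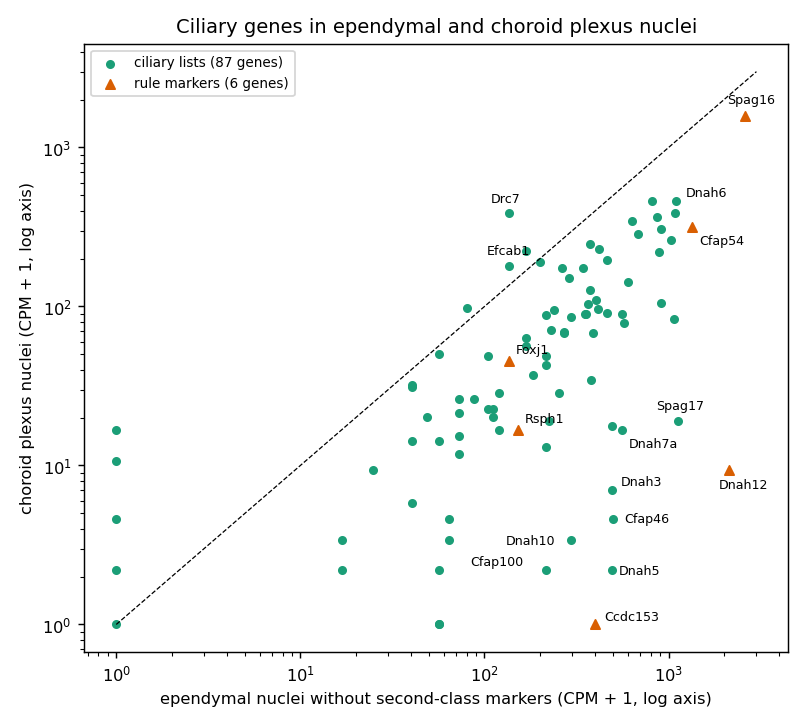
Pooled level of each ciliary gene in the 45 ependymal nuclei without second-class markers (horizontal) and in 129 choroid plexus nuclei (vertical), as CPM + 1 on log axes; the dashed line marks equal levels. Most genes lie below the line, Dnah5, Dnah10, Cfap46 and Cfap100 far below it, and Drc7 above it.

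Mitochondrial UMIs were more frequent in ependymal nuclei than elsewhere. The median share per member was 1.36% in WT (range 0.488% to 2.27%), 1.34% in PS19 replicate 1 (0 to 3.65%), 0.604% in PS19 replicate 2 (0.024% to 2.82%) and 0.347% in TG_PS19 (0.135% to 1.80%). Without the 9 nuclei these medians were 1.55%, 1.44%, 0.871% and 0.652% in WT, PS19 replicates 1 and 2 and TG_PS19. In all other nuclei the medians were 0.0405% to 0.0655%, in choroid plexus nuclei 0.0132% to 0.0348% and in astrocyte nuclei 0.0444% to 0.0782%. The member medians were thus higher than both compared populations in each library, and the ranges of the 4 libraries overlapped. By transcript, mt-Cytb made up 29.9% of the mitochondrial UMIs of members and 24.1% of those of other nuclei, and mt-Nd4 16.1% and 12.4%. Mitochondrial RNA in nuclei can come with cytoplasm that stayed attached, and its part in these levels was not tested. No barcode over the limit of 5% held 4 markers.

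Some members carried RNA of a second cell class. With limits set after the data were seen (at least 4 of the 8 choroid plexus genes, 15 oligodendrocyte list UMIs or 30 astrocyte list UMIs, or under 20 ciliary genes), 9 of 54 members were marked: 1 in WT, 2 and 4 in PS19 replicates 1 and 2 and 2 in TG_PS19. Their median depth was 8289 UMIs against 2645 for the other 45, and they held 36.7% of all member UMIs. Choroid plexus genes marked 1 nucleus in each PS19 library, with 295 and 328 UMIs of the choroid list. Their ciliary shares were 0.724% and 0.772%, within the range of the pooled choroid plexus values and below the lowest of the other 45 members (1.95%), and their mitochondrial shares were 0 and 0.024%. Astrocyte genes marked 4 nuclei with 52 to 150 UMIs of that list, and oligodendrocyte genes marked 3 with 19 to 107. The median mitochondrial share was 0.135% in these 9 and 1.14% in the other 45. The doublet score marked 2 of the 9, and it marked all 10 WT members although 9 of them held no second class by these limits. 1 TG_PS19 nucleus, with 52 astrocyte list UMIs, held only 13 ciliary genes and no UMI of Tmem212, Dnah12 or Ccdc153. Its ciliary share of 0.445% was the lowest of all members.

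Ependymal nuclei were rare in every library. They were 10 of 12761 nuclei in WT (0.0784%, exact 95% binomial interval 0.0376% to 0.144%) and 11 of 9719 in TG_PS19 (0.113%, 0.0565% to 0.202%). PS19 replicate 1 had 23 of 4642 (0.495%, 0.314% to 0.743%) and PS19 replicate 2 had 10 of 4922 (0.203%, 0.0975% to 0.373%). Both PS19 shares were above the WT and TG_PS19 shares, but the interval of PS19 replicate 2 overlapped those of WT and TG_PS19. Without the 9 nuclei the shares were 0.0705%, 0.452%, 0.122% and 0.0926% in WT, PS19 replicates 1 and 2 and TG_PS19. These intervals cover counting error only. The shares were not tested between genotypes, since permutation of 1 library against 2 cannot pass 0.05. The share of choroid plexus nuclei, the other ventricular population, was 0.298% in WT, 0.517% and 0.508% in PS19 and 0.432% in TG_PS19. How much ventricle wall came with each dissected hippocampus cannot be told apart from genotype. Thinned to 1000 UMIs, 3, 6, 3 and 4 nuclei still met the rule, or 0.0242%, 0.131%, 0.0612% and 0.0438%, with 24 to 594 nuclei and 0 members too shallow to thin.

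**Figure D4:**
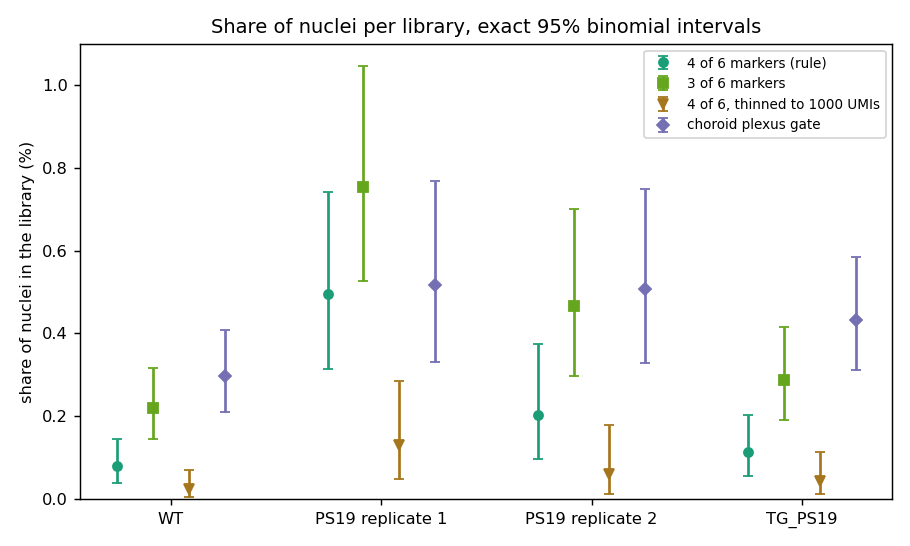
Share of nuclei in each library (percent) under the rule, with at least 3 markers, after thinning, and for choroid plexus nuclei by their own genes; bars are exact 95% binomial intervals. PS19 replicate 1 is highest under every definition, for choroid plexus nuclei by little (0.517% against 0.508% in PS19 replicate 2). All intervals are wide because the counts are small.

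Among nuclei chosen by ciliary markers, the ciliary genes did not differ detectably between genotypes at this depth. Nuclei with fewer than 4 markers were left out in every library. This choice can hide a difference in ciliary RNA, so the comparison cannot show that genotype leaves it unchanged. UMIs were summed per library and tested with edgeR over 1323 genes, with Benjamini-Hochberg adjustment. Only the PS19 pair measures spread, and WT and TG_PS19 were assumed to vary like it. The fit took the spread of each gene wholly from a trend over the tested genes. A gene's own difference between the PS19 libraries thus entered its p-value and standard error only through that trend. In PS19 against WT, 15 genes (1.13%) were called at an adjusted p under 0.05, all higher. In TG_PS19 against PS19, 7 genes (0.529%) were called, 2 higher (0.151%) and 5 lower (0.378%), and in TG_PS19 against WT 4 (0.302%), all higher. The comparisons share libraries. Of the 87 ciliary genes, 45 passed the filter on low counts, and edgeR called 0 of them in each comparison, as did DESeq2. At an unadjusted p under 0.05 there were 2 in PS19 against WT (Pifo and Dnah3), and Dnah5 alone in each of the others, named after their values were seen. A typical ciliary gene had a standard error of 0.62 on the log2 scale in PS19 against WT, so that only large differences could have been detected.

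The median log2 fold change of the 45 was -0.28 in PS19 against WT, with 14 of 45 (31.1%) above 0, beside a median of 0.09 and 53.7% above 0 over all 1323 genes. In TG_PS19 against PS19 it was -0.04 beside -0.06 for all genes, and in TG_PS19 against WT -0.13 beside 0.01. The PS19 libraries differed from each other by a median of 0.37 over the same genes. Without the 9 nuclei that hold a second class, 34 were tested and the medians were -0.04, -0.08 and -0.05. In those 45 nuclei the ciliary share of UMIs per nucleus had a median of 2.82% in WT (range 2.31% to 3.29%) and 2.81% in TG_PS19 (2.19% to 3.39%). It was 2.65% in PS19 replicate 1 (2.20% to 3.65%) and 2.28% in PS19 replicate 2 (1.95% to 3.16%). The 4 ranges overlapped, in nuclei that the rule had chosen by ciliary markers.

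Single ciliary genes show the same picture. Dnah6 stood at 1582 normalized CPM (scaled by TMM over the tested genes) in WT, 1630 and 1453 in PS19 and 1626 in TG_PS19, and PS19 differed from WT by -0.03 on the log2 scale (SE 0.58, adjusted p 0.994 with edgeR). Cfap44 stood at 1348, 1674, 1130 and 1232 normalized CPM. Tmem212, outside the ciliary lists, was at 2227 in WT, 1696 and 1291 in PS19 and 2218 in TG_PS19, and here PS19 differed from WT by -0.56 (SE 0.56, adjusted p 0.865 with edgeR). Dnah5 was lowest in TG_PS19, at 148 normalized CPM against 771 and 484 in PS19, with an unadjusted p of 0.0101 and an edgeR adjusted p of 0.407. Of 5 ependymal genes outside the ciliary lists that were tested, edgeR called 0 in any comparison, and 0 had an unadjusted p under 0.05. The rule markers are not compared, since the rule set their detection in every library.

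The genes that were called are known mostly from other cells, and their UMIs lay in few nuclei. In PS19 against WT they included the choroid plexus genes Htr2c (a serotonin receptor), Ttr (transthyretin), Enpp2 (autotaxin) and the ion channel gene Trpm3. Htr2c had 0 UMIs in WT, 69 and 154 in PS19 replicates 1 and 2 and 0 in TG_PS19, and 222 of these 223 UMIs lay in the 9 nuclei with second-class markers. Ttr had 0, 101, 70 and 5 UMIs, 169 of 176 of them in those 9 nuclei. Trpm3 had 19, 308, 243 and 8 UMIs. PS19 exceeded WT by 2.89 on the log2 scale (SE 0.69, adjusted p 0.00617 with edgeR), and TG_PS19 against PS19 gave -4.37 (SE 0.79, adjusted p 1.54e-05). Those 9 nuclei held 534 of its 578 UMIs. Of 13 choroid plexus list genes, 4 were tested, with 3 called higher in PS19 against WT and the same number lower in TG_PS19 against PS19.

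Genes of astrocytes and neurons were called as well. Lsamp, a neural adhesion gene, had 9 UMIs in WT, 183 and 39 in PS19 and 204 in TG_PS19. TG_PS19 exceeded WT by 4.24 on the log2 scale (SE 0.81, adjusted p 0.00024 with edgeR), and 415 of its 435 UMIs lay in the 9 nuclei. The glutamate transporter gene Slc1a2 had 4 UMIs in WT, 89 and 16 in PS19 and 76 in TG_PS19, 158 of 185 of them in those nuclei. Slit2, a guidance factor gene, had 2, 14, 2 and 28 UMIs and was higher by 2.66 in TG_PS19 than in PS19 (log2 scale, SE 0.64, adjusted p 0.00694 with edgeR). Of its 28 TG_PS19 UMIs, 23 lay in the nucleus with only 13 ciliary genes, and 5 lay outside the 9 nuclei. Xist, transcribed from the inactive X chromosome, had 1, 2, 1 and 25 UMIs, with 19 of the TG_PS19 UMIs in a single nucleus that also carried 131 astrocyte list UMIs. Xist was high throughout TG_PS19, as given above, and not in ependymal nuclei alone.

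Other genes called in PS19 against WT are expressed in neurons or glia and had few WT counts. Frmpd4 had 0, 35, 42 and 4 UMIs in WT, PS19 replicates 1 and 2 and TG_PS19, and Lrrc4c had 0, 44, 17 and 9. The splicing factor gene Rbfox1 had 1, 41, 19 and 4, and Lhfpl3, a gene of oligodendrocyte precursors, had 0, 35, 9 and 8. Rorb, called in both PS19 and TG_PS19 against WT, had 0, 24, 16 and 17. Pde4b, a phosphodiesterase gene called lower in TG_PS19 than in PS19, had 18, 20, 53 and 2.

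Over all comparisons 20 genes were called, and 19 of them had at least 50% of their UMIs in the 9 nuclei. Those nuclei held 36.7% of all member UMIs. How many of the 1323 tested genes reach 50% was not counted, so the 19 have no background share beside them. For Htr2c and Slc1a2 the choice of the 9 nuclei fixed this in part, because their own UMIs counted towards it, and among the other 18 called genes there were 17. The exception was the histone methyltransferase gene Ash1l, with 0 UMIs in WT, 35 and 12 in PS19 and 13 in TG_PS19, spread over 27 nuclei. Its level in the other nuclei of WT was 296 CPM, so it was not absent from that library. Without the 9 nuclei, edgeR called 0 of 521 genes in each comparison, with 8, 20 and 11 genes at an unadjusted p under 0.05. DESeq2 on all 54 nuclei called 1 gene in each comparison, Trpm3 in the first 2 and Lsamp in TG_PS19 against WT.

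**Figure D5:**
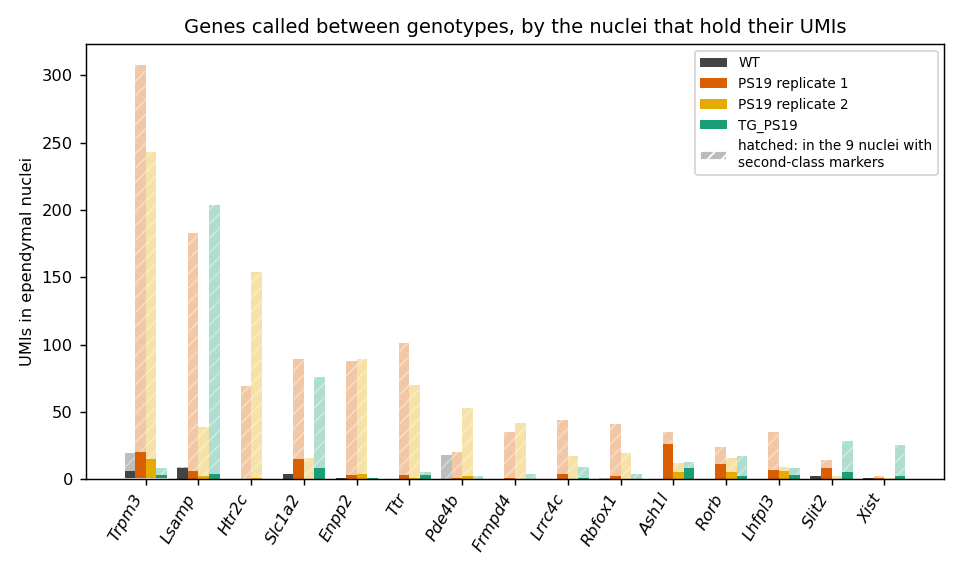
UMIs of the 15 called genes described in the text, in ependymal nuclei of each library; the solid part of a bar lies in the 45 nuclei without second-class markers and the pale hatched part in the 9 nuclei with them. The hatched part is at least 50% of the UMIs in every gene shown but Ash1l.

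The transgenes were at the limit of detection in these few nuclei. Among 28602 WT member UMIs there were 0 of human MAPT, and 3 counts there would be 105 CPM. MAPT had 8 UMIs in 6 nuclei of PS19 replicate 1, 1 UMI in PS19 replicate 2 and 0 in TG_PS19. Human SORL1 had 4 UMIs in 4 nuclei of TG_PS19 and 0 in the other 3 libraries. Mouse Mapt had 23 UMIs, all in the 9 nuclei with second-class markers, and mouse Sorl1 had 1, 17, 10 and 3 in WT, PS19 replicates 1 and 2 and TG_PS19. Reads that match both species could be counted under either gene, so these counts are uncertain.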

How the data were processed

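Single nuclei of 4 libraries were profiled with 10x 3′ chemistry, and the deposited matrices hold raw UMI counts per gene and nucleus. The submitters' processing notes name Cell Ranger 7.1.0 and GRCm38. The annotation release, counting of introns and use of strand are not given in the sources used here. The 55403 features include human MAPT and SORL1. Members were chosen by the rule given above. The members and gene lists were chosen with earlier results of these data known. Member counts were summed per library and tested with edgeR 4.0.16 (TMM, filterByExpr, quasi-likelihood test, 1 residual degree of freedom), with DESeq2 1.42.0 as an alternative, in R 4.3.3. The fitted prior degrees of freedom were infinite, so the spread of each gene was taken from the trend over genes. The edgeR code was tested on simulated data. Identity folds used CPM + 10. Doublets were scored against simulated ones but kept, because the score marked every WT member. Thinning drew 1000 UMIs per nucleus. Named genes were the 30 leading features, examples from each list, up to 10 called genes per direction and comparison with the largest change, and the targeted and sex-linked genes; list members named for a count near 0 or an unusual value were chosen after their values were seen. Alternatives changed scaling, filter, tool, marker number, doublets and replicates. Intervals and floors of 3 counts cover counting error only. A few called genes are counted in the totals but not reported here.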

Additional observations from a re-analysis of the deposited data

How the results depend on the processing

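The number of genes called depended on the nuclei and the tool. In PS19 against WT, TG_PS19 against PS19 and TG_PS19 against WT, 15, 7 and 4 genes were called, RLE scaling gave 15, 7 and 4, and library totals 13, 7 and 4. Without a filter on low counts there were 6, 4 and 0 (edgeR, 465, 470 and 377 at an unadjusted p under 0.05), and DESeq2 gave 1 in each. With at least 3 markers edgeR called 0, 0 and 0 (71, 126 and 87 unadjusted; DESeq2 was not run there). Without the nuclei that hold a second class it was again 0, 0 and 0 (8, 20 and 11 unadjusted), and with at least 3 markers and those nuclei left out 0, 0 and 0 (32, 43 and 29 unadjusted). Leaving out the second-class nuclei, and combining that with 3 markers, were chosen after seeing the data. Of the 60 nuclei that the limit of 3 markers added, 31 held at least 4 of the 8 choroid plexus genes. Unless second-class nuclei were left out, calls, folds and shares at 3 markers thus cover ependymal and choroid plexus nuclei together. With at least 3 markers PS19 against WT turned to -0.14 for Frmpd4, -0.91 for Htr2c, -0.98 for Rbfox1 and -0.07 for Ttr, and TG_PS19 against PS19 to 0.96 for Htr2c and 0.9 for Ttr (log2). With second-class nuclei also left out, Slit2 turned to -0.18 in TG_PS19 against PS19 and Lsamp to -1.42 in TG_PS19 against WT. The cause was not tested. The median log2 change of the ciliary genes turned positive in PS19 against WT without a filter (0.08) and at 3 markers without second-class nuclei (0.05). In TG_PS19 against PS19 it was 0.01 at 3 markers, 0.07 when second-class nuclei were left out too, and from -0.13 to 0.15 when PS19 replicate 2 or 1 was left out. In TG_PS19 against WT it was 0.1 at 3 markers without second-class nuclei. Leaving out a PS19 replicate left no residual degree of freedom and gave values with no test. In WT, PS19 replicates 1 and 2 and TG_PS19, the share of ependymal nuclei was 0.219%, 0.754%, 0.467% and 0.288% with at least 3 markers, 0.0235%, 0.151%, 0.0813% and 0.0412% with at least 5, and 0.0242%, 0.131%, 0.0612% and 0.0438% after thinning. With high doublet scores left out the WT share was 0.0% (0 of 11458, at most 0.0322%). The median of the lowest log2 folds of the 30 leading features was 5.13, and 6.54 with 1 CPM added, 4.3 at 3 markers, 5.59 without second-class nuclei and 5.56 with both changes. The genotype tests were not run with at least 5 markers or with doublets left out, since the smallest library then held 3 and 0 nuclei. No paired analysis was possible because WT and TG_PS19 have 1 library each and the labels number only the PS19 libraries.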
